A study of Mus musculus with 8 samples.

Results

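Genes for 10 transcription factors known from mesenchyme were followed in pancreatic islets of mice on a high fat diet (HF) and on normal chow (NC). They were Twist1, Twist2, Prrx1, Meox1, Meox2, Tcf21, Snai2, Zeb1, Zeb2 and Nkx3-2, and they were taken with every probe set of the array that is annotated to 1 of them alone. This gave 25 probe sets of 10 genes, of 45101 probe sets on the array. Male C57Bl/6J mice, a strain that carries a natural deletion in Nnt, entered the diets at weaning at 4 weeks of age. The HF mice had 45% of kcal from fat (replicates 21, 22, 23 and 24) and the NC mice had regular rodent chow (replicates 1, 2, 4 and 5), so that both diets shared strain, sex and the Nnt deletion. Time on diet was 12 weeks in the labels and 14 weeks in the methods. Per the methods, islets were isolated with collagenase and then a Ficoll density gradient. Each of the 8 samples combined islets of 2 mice and was run on 1 array, so that n counts pools.

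Mesenchymal cells are the loosely arranged cells of connective tissue and of vessel walls, which make matrix and give developing organs their supporting layer. Twist1, Twist2 and Tcf21 are basic helix-loop-helix proteins that bind E-box letters in DNA together with widely expressed partners called E proteins. Snai2, Zeb1 and Zeb2 are zinc finger repressors known for switching off Cdh1 and other epithelial genes when epithelial cells take on a mesenchymal form, a process called epithelial to mesenchymal transition (EMT). Prrx1, Meox1, Meox2 and Nkx3-2 are homeodomain proteins of limb, somite and visceral mesenchyme, and Nkx3-2 is known from the mesenchyme around the developing pancreas.

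The values are GCRMA intensities, which measure the brightness of a probe set on a linear scale after background adjustment and normalization across arrays. Intensities of different probe sets are not comparable as RNA levels. The median intensity of the samples lay between 13.0 and 13.8. Probe sets were retained by the third-highest of their 8 intensities without regard to diet, and the lowest level retained was 8.82. HF and NC samples were set against each other in limma. A probe set was taken as changed where p, adjusted by Benjamini-Hochberg over all retained probe sets, was under 0.05 and the fold change reached 1.5. All p-values measure the spread between pools. Beta cell markers such as Iapp (83148 to 86876 in HF and 77860 to 80031 in NC) were bright on both diets, and 6 acinar markers summed to 259357 to 297547 in HF and 243292 to 306413 in NC, so that exocrine RNA was present on both diets.

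Zeb2, Tcf21 and Prrx1 had probe sets that fell on HF, to between 38.6% and 50.7% of NC. Of the 25 probe sets 10 were retained, from 7 genes, and of these 4 fell, 0 rose and 6 did not pass the test. Over all retained probe sets 3.06% fell and 0.644% rose. The median log2 fold change of the 10 was -0.50, against 0.02 over all retained probe sets. Of the 10 probe sets 9 had a negative log2 fold change, against 43.4% of all retained probe sets, and 7 had an unadjusted p under 0.05, against 20.8% of all. In 4 of the 10 every HF value lay below every NC value, which was so for 7.84% of all retained probe sets. None of the 10 had a value under 8.82, so that none was retained through its level on 1 diet only.

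**Figure D1:**
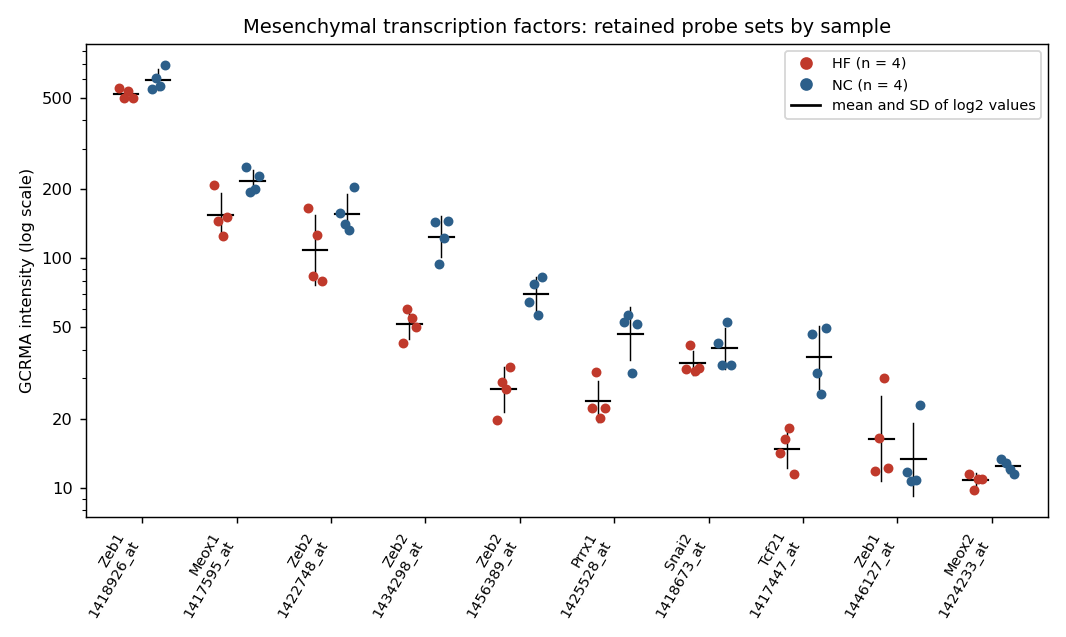
GCRMA intensities (log scale) of the 10 retained probe sets in each sample, HF left of NC, with bars for the mean and SD of log2 values, n = 4 pools per diet. The HF samples lie below all NC samples for Zeb2 1434298_at, Zeb2 1456389_at, Tcf21 1417447_at and Meox2 1424233_at, and the diets overlap in the other 6.

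Zeb2, a zinc finger and homeodomain repressor, had the lowest adjusted p among the members. Its probe set 1434298_at had intensities of 42.6, 60.1, 55.03 and 50.5 in HF replicates 21, 22, 23 and 24, against 144, 94.0, 122 and 145 in NC replicates 1, 2, 4 and 5. The highest HF value lay well under the lowest NC value. The means were 52.0 ± 7.43 in HF and 126 ± 23.9 in NC (SD, n = 4 each), and the log2 fold change was -1.27 with a standard error of 0.16 (adjusted p = 0.00446, limma). Probe set 1456389_at had 19.8, 29.1, 27.1 and 33.6 in HF, against 64.7, 77.4, 56.5 and 83.0 in NC, again with no overlap. On the log2 scale HF minus NC was -1.37 here, with a standard error of 0.18 (adjusted p = 0.00522, limma). An exact two-sided permutation test over the 8 samples gave p = 0.0286 for each, the smallest p that 4 against 4 samples allow.

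The probe sets of Zeb2 were not alike. The brightest one, 1422748_at, had 166, 83.8, 127 and 79.9 in HF, against 158, 140.4, 132 and 205 in NC. HF replicates 22, 23 and 24 lay below all NC samples, while HF replicate 21 was above 3 of them. Its log2 fold change of -0.52 (standard error 0.25) did not pass the test (adjusted p = 0.292 from limma), and its 95% interval ran from -1.10 to 0.06. The log2 difference of 1434298_at minus 1422748_at ranged from -1.97 to -0.48 in HF and from -0.58 to -0.12 in NC, so that the ranges overlapped. Probe sets 1458941_at and 1454200_at of Zeb2 were dim on both diets, with intensities of 5.11 to 5.31 in HF and 5.22 to 5.25 in NC for 1458941_at, and of 5.12 to 5.36 in HF and 5.06 to 5.30 in NC for 1454200_at. The parts of the Zeb2 transcript that the 5 probe sets match were not examined here.

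Zeb1, the closest relative of Zeb2, did not pass the test in any probe set. Its probe set 1418926_at had 549, 496, 533 and 496 in HF, against 545, 610.3, 562 and 690 in NC. HF replicates 22, 23 and 24 lay below all NC samples and HF replicate 21 lay just above NC replicate 1. The log2 fold change was -0.21 (standard error 0.08), with a 95% interval of -0.40 to -0.02 that stopped short of a fold change of 1.5, and it did not pass the test (adjusted p = 0.204 from limma). Probe set 1446127_at had 11.9, 16.6, 30.1 and 12.3 in HF, against 11.8, 10.7, 10.9 and 23 in NC, with 1 high sample on each diet and the only positive log2 fold change of the retained 10, at 0.30 (standard error 0.35, adjusted p = 0.703 from limma). The other 2 probe sets of Zeb1 were dim, with 4.83 to 5.65 in HF and 4.83 to 4.93 in NC for 1443005_at, and 4.21 to 4.40 in HF and 4.25 to 4.33 in NC for 1420243_at.

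Whether the 2 genes moved unequally was tested on the log2 difference of Zeb1 minus Zeb2 within each sample. With the brightest probe set of each gene it averaged 2.25 ± 0.43 in HF and 1.94 ± 0.19 in NC (SD, n = 4 each), a difference of 0.31 that did not pass an exact permutation test (p = 0.343, adjusted p = 0.514 over 3 pairs of related genes). With the mean over all probe sets of each gene the difference was 0.67, and the HF samples lay above all NC samples. The exact permutation test gave p = 0.0286, the smallest that 4 against 4 samples allow, and an adjusted p of 0.0857 over the 3 pairs. At this smallest p a pair could not pass after adjustment unless another pair reached the same p. The adjusted test therefore cannot decide whether the 2 genes moved unequally.

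Tcf21, a factor of the mesenchyme of kidney, lung and epicardium, fell on HF. Probe set 1417447_at had 14.2, 16.4, 18.2 and 11.5 in HF, against 46.6, 31.8, 25.6 and 49.8 in NC. All HF samples lay below all NC samples, and NC replicate 4 was the nearest. The means were 15.1 ± 2.87 in HF and 38.5 ± 11.6 in NC (SD, n = 4 each). The log2 fold change, a difference of mean log2 values, was -1.32 with a standard error of 0.24 (adjusted p = 0.0169 from limma, exact permutation p = 0.0286). Without 1 sample the adjusted p from limma moved past 0.05 for NC replicate 1 (0.0501), HF replicate 21 (0.0539) and HF replicate 24 (0.0527), with log2 fold changes of -1.21, -1.30 and -1.20. Its other probe set, 1458887_at, had 6.25 to 6.77 in HF and 6.60 to 6.69 in NC, below the level retained.

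Prrx1, a homeodomain factor of limb and craniofacial mesenchyme, fell in 1 of its 6 probe sets. Probe set 1425528_at had 22.4, 32.1, 20.2 and 22.3 in HF, against 52.6, 56.9, 31.7 and 51.7 in NC. The diets overlapped at 1 pair of samples, since HF replicate 22 lay just above NC replicate 4. The means were 24.3 ± 5.34 in HF and 48.2 ± 11.2 in NC (SD, n = 4 each). The log2 fold change, a difference of mean log2 values, was -0.98 with a standard error of 0.21 (adjusted p = 0.0351 from limma, exact permutation p = 0.0571). Without NC replicates 1, 2 or 5 or HF replicates 21, 23 or 24 the adjusted p from limma was 0.0797 to 0.1004, and without the filter on low values it was 0.0804.

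The other 5 probe sets of Prrx1 were not retained. Probe set 1439774_at had 6.38, 6.53, 6.18 and 6.82 in HF, against 11.6, 6.46, 6.59 and 13.2 in NC, so that 2 NC samples stood above all the others. Probe set 1425527_at had 5.11, 5.01, 5.35 and 5.12 in HF, against 5.80, 5.66, 5.36 and 5.84 in NC, with no overlap but a log2 fold change of -0.14, and all 8 values lay under 8.82. The remaining 3 had log2 fold changes within 0.1 of 0, with ranges of 6.60 to 7.10 in HF and 6.62 to 6.89 in NC for 1458004_at, 5.31 to 5.72 in HF and 5.64 to 5.68 in NC for 1432129_a_at, and 5.26 to 5.40 in HF and 5.29 to 5.37 in NC for 1425526_a_at.

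The windows around the annotated starts of the 3 genes with a probe set that fell are given to show which letters known from these protein families they hold. They come from RefSeq on build GRCm38.p6 and hold 250 bases before the start and 50 bases from it, read 5′ to 3′ on the strand of the gene. Letters of 3 kinds were searched on both strands: the E-box CANNTG of the Twist and Tcf21 family, its form CACCTG known from Snai and Zeb proteins (every CACCTG is also a CANNTG), and the homeodomain letters TAATTA. Capitals mark a match. The Prrx1 window is on chromosome 1, chr1:163313601-163313900 (minus strand), the Tcf21 window on chromosome 10, chr10:22820094-22820393 (minus strand), and the Zeb2 window, the one farthest upstream of 4, on chromosome 2, chr2:45117393-45117692 (minus strand).
Prrx1: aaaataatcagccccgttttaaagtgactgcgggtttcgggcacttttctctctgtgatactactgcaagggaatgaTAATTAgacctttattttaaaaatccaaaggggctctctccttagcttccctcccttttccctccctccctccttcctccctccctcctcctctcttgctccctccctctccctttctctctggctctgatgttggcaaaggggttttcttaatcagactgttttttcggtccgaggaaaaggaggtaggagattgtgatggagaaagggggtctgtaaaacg
Tcf21: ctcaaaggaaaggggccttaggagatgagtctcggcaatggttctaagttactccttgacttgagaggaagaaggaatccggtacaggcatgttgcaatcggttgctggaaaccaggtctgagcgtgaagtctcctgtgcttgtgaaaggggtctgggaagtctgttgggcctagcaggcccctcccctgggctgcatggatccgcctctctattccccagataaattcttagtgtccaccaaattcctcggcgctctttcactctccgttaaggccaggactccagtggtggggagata
Zeb2: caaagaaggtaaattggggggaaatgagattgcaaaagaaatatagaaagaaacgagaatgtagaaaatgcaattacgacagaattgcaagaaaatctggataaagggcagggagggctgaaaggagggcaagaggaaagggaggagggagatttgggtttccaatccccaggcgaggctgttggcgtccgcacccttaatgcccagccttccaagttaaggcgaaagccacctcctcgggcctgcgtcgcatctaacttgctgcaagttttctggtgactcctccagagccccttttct

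The Prrx1 window held TAATTA once, at -173 from the start, letters found in 5.29% of all 32851 windows of this length. An E-box was found in 72.3% of all windows and CACCTG in 20.2%, and neither was found in the windows of Prrx1, Tcf21 or Zeb2. In all, 10 windows of 7 members were searched, and no window of Meox1, Snai2 or Zeb1 was among them. The search of members left out a chromosome that the shares over all windows did not leave out. Nkx3-2 held CANNTG at -246 and 34 and Meox2 at -82, while the windows of Twist1 and Twist2 and the other Zeb2 windows held none of the 3 kinds of letters. A match describes letters and not a bound site.

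Meox1 and Meox2, related homeodomain factors of somites and of vessel walls, did not pass the test. Meox1 1417595_at had 208, 146, 125 and 152 in HF, against 248.6, 195, 199.5 and 228 in NC. HF replicates 22, 23 and 24 lay below all NC samples, and HF replicate 21 lay above NC replicates 2 and 4. The log2 fold change was -0.48 (standard error 0.16, adjusted p = 0.121 from limma), and without HF replicate 21 it was -0.63 and passed (adjusted p = 0.0334). Meox2 1424233_at was close to the lowest level retained, with 11.56, 9.86, 11.0 and 11.0 in HF, against 13.4, 12.8, 12.1 and 11.57 in NC. The groups did not overlap by a narrow margin, and the log2 fold change was -0.20 (standard error 0.07, adjusted p = 0.158 from limma, exact permutation p = 0.0286). Probe set 1424234_s_at of Meox2 was not retained, with 7.75, 8.08, 7.37 and 8.41 in HF, against 19.6, 8.10, 8.08 and 8.06 in NC, so that NC replicate 1 alone stood out. The log2 difference of Meox1 minus Meox2 was 3.84 ± 0.27 in HF and 4.12 ± 0.17 in NC (SD, n = 4 each), which an exact permutation test did not separate (p = 0.114, adjusted p = 0.343 over 3 pairs).

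Snai2, the repressor also called Slug, had 33.1, 41.8, 32.4 and 33.3 in HF, against 43.0, 34.5, 52.8 and 34.5 in NC with 1418673_at. The diets overlapped through HF replicate 22. The log2 fold change was -0.21 (standard error 0.15, adjusted p = 0.490 from limma), with a 95% interval of -0.57 to 0.14. Probe set 1447643_x_at of Snai2 had 7.04 to 7.63 in HF and 7.25 to 7.68 in NC and was not retained. In the naming of these arrays, endings such as _s_at and _x_at mark probe sets whose probes can match other transcripts too.

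Twist1, Twist2 and Nkx3-2 had no retained probe set. Twist1 1418733_at had 6.70, 6.87, 6.68 and 7.04 in HF, against 6.94, 6.73, 6.80 and 6.82 in NC. Twist2 1448925_at had 5.02, 5.17, 4.94 and 5.40 in HF, against 5.25, 5.05, 5.11 and 5.03 in NC. Nkx3-2 1421464_at had 3.68, 3.76, 3.70 and 3.81 in HF, against 3.77, 3.72, 3.74 and 3.71 in NC. In all 3 genes the range of the HF samples held that of the NC samples, and every value lay under 8.82, so that a difference was not detectable. Over the 15 probe sets that were not retained, log2 fold changes ran from -0.47 to 0.06 and were within 0.1 of 0 in 12. In 13 of the 15 all 8 values lay under 8.82, and these 13 varied by only 0.04 to 0.23 on the log2 scale over the samples. The difference of Twist1 minus Twist2, 0.41 ± 0.02 in HF and 0.42 ± 0.02 in NC (SD, n = 4 each), had an exact permutation p of 0.743 (adjusted p = 0.743 over 3 pairs). When all probe sets of the array were fitted without a filter, 3 of the 25 fell (both Zeb2 probe sets above and Tcf21), against 1.27% of all.

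**Figure D2:**
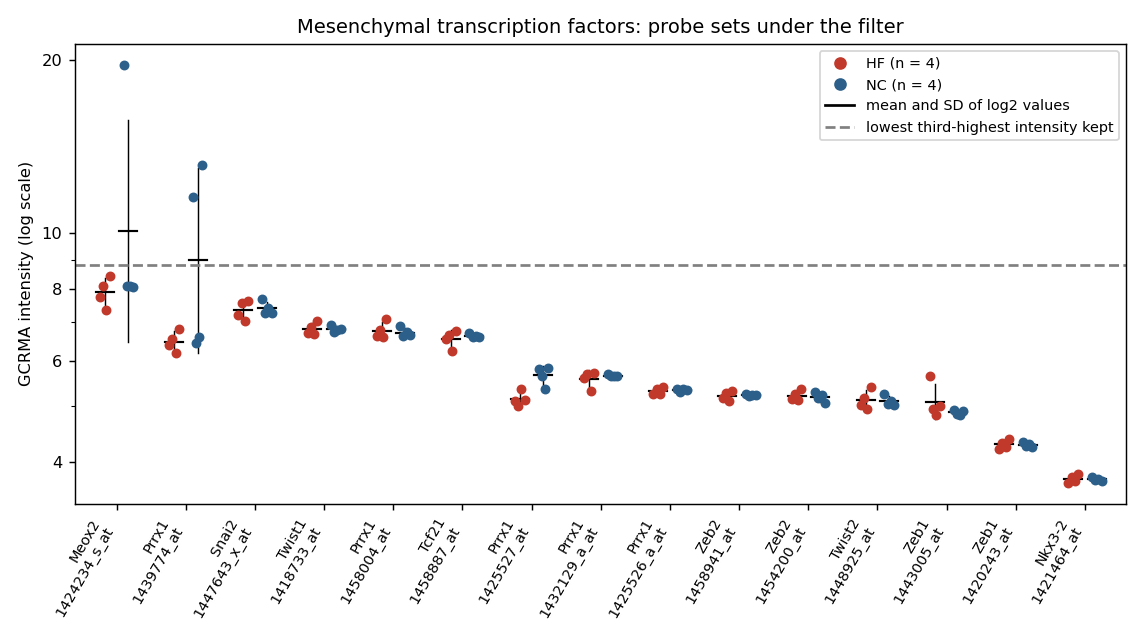
GCRMA intensities (log scale) of the 15 probe sets that were not retained, by sample, HF left of NC, with bars for the mean and SD of log2 values (n = 4 pools per diet) and a dashed line at 8.82. Only NC samples of Meox2 1424234_s_at and Prrx1 1439774_at lie above the line.

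**Figure D3:**
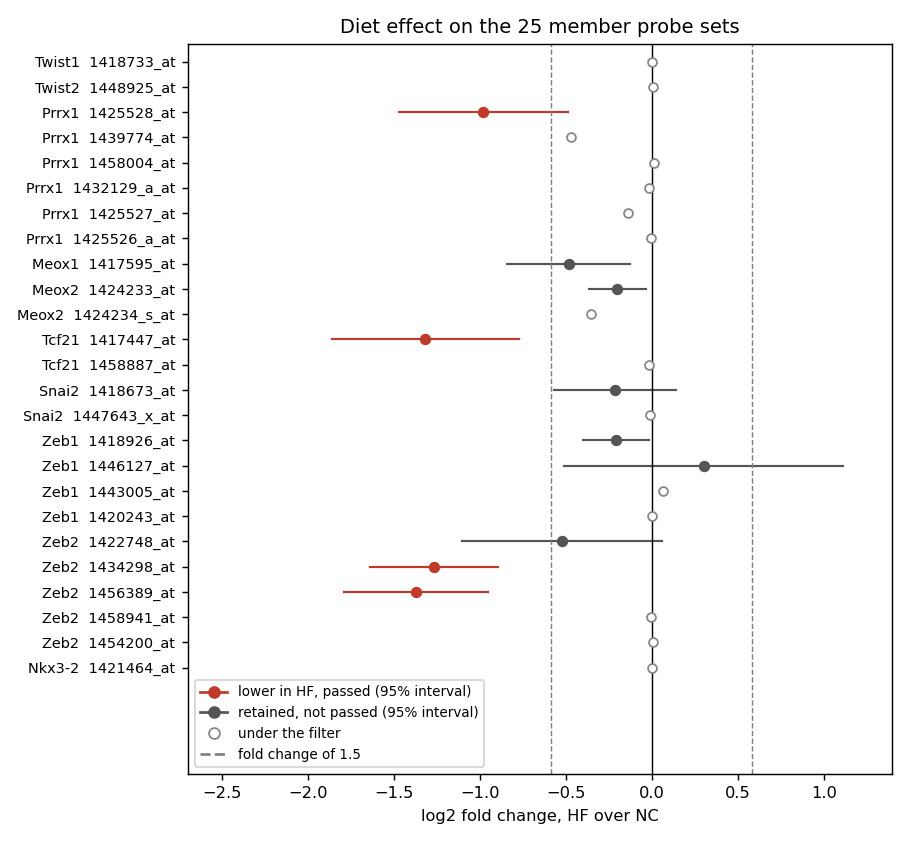
Log2 fold change of HF over NC for all 25 probe sets, with 95% intervals from limma for the 10 retained ones and open circles for those under the filter; dashed lines stand at a fold change of 1.5. The 4 that fell lie between -1.37 and -0.98.

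Counted once per gene, by its brightest retained probe set, 2 of 7 members fell (Prrx1 and Tcf21) and 0 rose, against 4.29% of all genes that fell and 0.455% that rose. The median of the 7 was -0.48, against 0.00 over 12299 genes. Zeb2 joined them where any retained probe set counted, which made 3 genes of 7, and counted in this way 4.66% of all genes fell. The count of probe sets that fell was 2 in place of 4 without NC replicate 1 and without HF replicate 24, and the count of genes by the brightest probe set was then 0. It was 1 without NC replicate 2, NC replicate 5 or HF replicate 23, where Tcf21 passed. It was also 1 without HF replicate 21, where neither Prrx1 nor Tcf21 passed and Meox1 did (adjusted p = 0.0334 from limma).

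The E proteins, partners of the helix-loop-helix members, did not pass, with log2 fold changes of -0.21 for Tcf3, -0.24 for Tcf4 and -0.08 for Tcf12. Tcf4 had an adjusted p of 0.0488 from limma and a fold change under 1.5. Of 7 genes for E proteins and Id proteins, all retained, 3 fell, 0 rose and 4 did not pass, with a median log2 fold change of -0.76. The 3 that fell were Id proteins, small proteins that bind E proteins and keep them from DNA. Id1 had a log2 fold change of -0.76 with overlapping diets and did not pass (adjusted p = 0.0567 from limma). Id4 had 94.99 ± 22.6 in HF and 219 ± 23.5 in NC (SD, n = 4 each), and its log2 fold change was -1.23 (adjusted p = 0.00573 from limma). Id3 had 372 ± 45.1 in HF and 687 ± 88.5 in NC, a log2 fold change of -0.88 (adjusted p = 0.00459). Id2 had 1350.1 ± 328 in HF and 2468 ± 266 in NC, a log2 fold change of -0.89 (adjusted p = 0.0205). The 4 HF samples lay below the 4 NC samples in each of the 3. Without NC replicate 2, NC replicate 5 or HF replicate 21 Id2 did not pass, with an adjusted p of up to 0.0625 from limma.

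Other EMT regulators and the epithelial genes that they are known to repress did not pass. Of 7 other EMT regulators 3 were retained, and their median was -0.16. Ctbp1 and Ctbp2, corepressors that bind Zeb proteins, had 3407 ± 180 and 1542 ± 133 in HF and 3327 ± 135 and 1721 ± 161 in NC (SD, n = 4 each), with log2 fold changes of 0.03 and -0.16. The sign of Ctbp1 turned with scaling on beta cell markers. Foxc2, a forkhead factor of vessels and mesenchyme, had a log2 fold change of -0.53 (adjusted p = 0.204 from limma). Snai1, Snai3 and Gsc were not retained and Klf8 had no probe set annotated to it alone. Of 14 epithelial genes 13 were retained, and 0 passed in either direction, with a median of 0.00 and a range of -0.19 to 0.32. Cdh1, the epithelial cadherin, had 13254, 12669, 12794 and 13286 in HF, against 13239, 12978, 13426 and 13359 in NC. Its log2 fold change was -0.03 (95% interval of -0.13 to 0.08). Esrp1, an epithelial splicing factor, had 0.21 (adjusted p = 0.276), and Epcam, an epithelial adhesion protein, had -0.08 (adjusted p = 0.689).

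Among 29 other stromal transcription factors 14 were retained, of which 4 fell, 0 rose and 10 did not pass, with a median of -0.49. Hand2, a helix-loop-helix factor of heart and of sympathetic and enteric nerves, had 12.9, 22.6, 75.0 and 31.0 in HF, against 231, 208, 171 and 162 in NC, a log2 fold change of -2.74 (adjusted p = 0.0150 from limma). HF replicate 23 was the highest of the HF samples and still lay below all NC samples. Ebf1, a factor of B cells and of stromal and fat cells, had 116 ± 5.12 in HF and 280.0 ± 54.3 in NC (SD, n = 4 each), and its log2 fold change was -1.24 (adjusted p = 0.00238). Nr2f2, a nuclear receptor of veins and of mesenchyme, had 31.9 ± 2.80 in HF and 72.8 ± 15.6 in NC, a log2 fold change of -1.17 (adjusted p = 0.00620). The fourth was Foxf1, a forkhead factor of visceral mesenchyme, with -1.12 (adjusted p = 0.0234), which is named here after its values were seen. Foxf1 did not pass without NC replicates 1, 2 or 5 or HF replicate 21, with an adjusted p of up to 0.0683. Of 9 mesenchymal products 7 were retained, and 3 fell, 0 rose and 4 did not pass, with a median of -0.87. Postn, a matrix protein also called periostin, had a log2 fold change of -1.69 (adjusted p = 0.00446), and Sparc, a protein that binds collagen, had -1.03 (adjusted p = 0.0202). Itga5, an integrin chain for fibronectin, had -0.59 (adjusted p = 0.0351), with all 4 HF values under 8.82. With values under that level raised to it, Itga5 had -0.35 (adjusted p = 0.118). Without NC replicate 1, NC replicate 2, HF replicate 21 or HF replicate 24 only 1 of these products fell.

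Markers of fibroblasts and of smooth muscle cells and pericytes were lower on HF, as were probe sets of Zeb2, Tcf21 and Prrx1. All 10 fibroblast markers fell (median log2 fold change -2.43), and their summed intensity was 2654 to 4767 in HF and 13401 to 19222 in NC. Col1a2, a chain of type I collagen, had 247 ± 68.0 in HF and 1430.3 ± 286 in NC (SD, n = 4 each), and Vim, a filament protein of mesenchymal cells, had 1245 ± 233 in HF and 4336 ± 438 in NC, while Cdh11, a cadherin of fibroblasts, had a log2 fold change of -2.67. Of 8 smooth muscle and pericyte markers 6 were retained and 4 fell (median -0.96), with sums of 7242 to 8563 in HF and 10761 to 11926 in NC. Rgs5, the brightest of them, led these sums and did not pass, with 6470 ± 351 in HF and 7859 ± 274 in NC (SD, n = 4 each). Its log2 fold change was -0.28 (adjusted p = 0.0294 from limma), a fold change under 1.5. Des had -0.26 and did not pass either. Acta2, Tagln and Myh11, proteins of the contractile apparatus, had log2 fold changes of -1.43, -1.39 and -1.29. Pdgfrb, a growth factor receptor of pericytes and fibroblasts, had -0.64 and is named after its values were seen, and it passed only without NC replicate 4 or HF replicate 22 when 1 sample was left out. The sums of both lists did not overlap between the diets. Cdh11 had 7.43 to 11.4 in HF, with 2 values under 8.82, and the smooth muscle and pericyte markers Cnn1 and Cspg4 were not retained. Fewer cells of a type and less RNA per cell cannot be told apart in these bulk samples. Their part in the lower levels of Zeb2, Tcf21 and Prrx1 was not tested.

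Markers of vessels, nerves and blood cells were lower in part. Of 7 endothelial markers 2 fell (Tek and Pecam1, median -0.56, sums of 5798 to 6408 in HF and 6729 to 8472 in NC), and of 5 Schwann cell markers retained 3 fell (Cdh19, Erbb3 and Sox10, median -0.80, sums of 97.0 to 138 in HF and 306 to 401 in NC). The largest gap among the Schwann cell markers lay in Cdh19, with 5.81 to 27.0 in HF and 117 to 180 in NC. Of its HF values 2 lay under 8.82. Emcn and Kdr, the brightest endothelial markers, had log2 fold changes of -0.19 and -0.27 and did not pass. Of 7 macrophage markers retained 4 fell (Cd14, Ptprc, Csf1r and, named after its values were seen, Lyz2, median -0.77, sums of 1234 to 1396 in HF and 2448 to 2952 in NC). Of 3 lymphocyte markers retained 1 fell (Ms4a1, median -1.34, sums of 139 to 477 in HF and 524 to 755 in NC). Of the endothelial markers 4 fell without HF replicate 23, and of the lymphocyte markers 0 fell without NC replicate 1 or 2 and 2 fell without NC replicate 5 or HF replicate 23. Fabp4, the 1 adipocyte marker retained, fell by 1.01 on the log2 scale, with 2257 to 3475 in HF and 4761 to 6595 in NC. Msln, the 1 mesothelial marker retained, had a log2 fold change of 0.05, with 712 to 829 in HF and 627 to 827 in NC. Zeb2 and other members are also known from some of these cells, macrophages and Schwann cells among them, and their part was not tested either.

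Markers of epithelial and endocrine cells did not pass. The 8 beta cell markers had a median of 0.10 and sums of 263796 to 276569 in HF and 249351 to 255257 in NC, which did not overlap. The 4 retained markers of other endocrine cells had a median of -0.17 (sums of 163264 to 171972 in HF and 175590 to 179149 in NC), 6 acinar markers had -0.03, and 5 duct markers had -0.04 (sums of 2854 to 3417 in HF and 2992 to 3469 in NC). Most of the gap in the other endocrine sums lay in Ppy, with means of 50135 in HF and 59167 in NC. Its log2 fold change was -0.25 (adjusted p = 0.143 from limma), against 0.01 for Gcg and -0.09 for Sst. Krt19, a keratin among the duct markers, had 5.15 to 8.53 in HF and 10.7 to 40.4 in NC at a low level, with an adjusted p of 0.0534 from limma, and it passed without NC replicate 5 (adjusted p = 0.0315). With each array shifted to an equal mean of the beta cell markers, the log2 fold changes of Zeb2 1434298_at, Zeb2 1456389_at, Tcf21 and Prrx1 were -1.35, -1.45, -1.40 and -1.06, and all 4 passed.

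**Figure D4:**
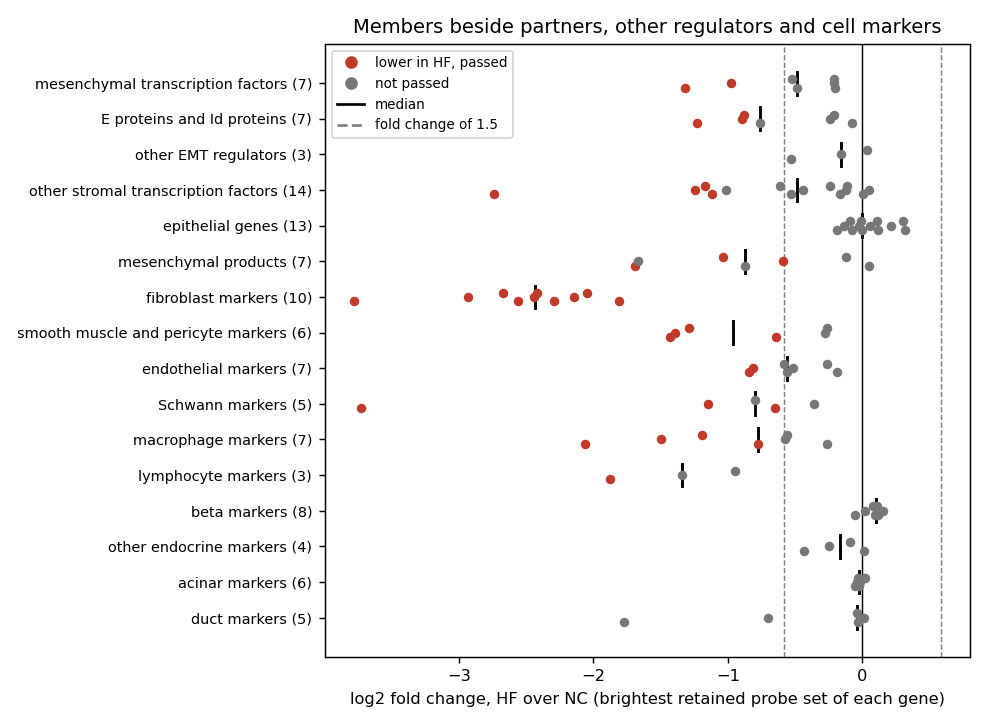
Log2 fold change of HF over NC for the brightest retained probe set of each gene, by list, with the number of genes in brackets, a bar at the median and dashed lines at a fold change of 1.5; lists with fewer than 3 retained genes are left out. The mesenchymal transcription factors have a median of -0.48, between fibroblast markers at -2.43 and epithelial genes at 0.00.

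The genes whose intensities followed Prrx1 and Tcf21 most closely over the 8 samples did not include another member. For Prrx1 1425528_at they were Ccrl2 (Pearson r = 0.99), Arhgef7 (0.99) and S100a16 (0.98), with log2 fold changes of -0.40, -0.29 and -0.67. For Tcf21 1417447_at they were Nfib (0.99), Arap3 (0.99) and Arhgap29 (0.99), with log2 fold changes of -0.89, -0.90 and -0.39. These are descriptions over samples that share 2 diets.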

How the data were processed

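Islet RNA of 8 pools (4 HF and 4 NC, 2 mice per pool per the methods) was measured on Affymetrix 430 2.0 mouse arrays. The authors summarised the probe intensities with GCRMA in ArrayAssist Lite, a method that corrects background and normalizes the arrays together, and the deposited intensity values are linear, from 1.33 to 142713. The genome build behind the probe set annotation was not given in the sources used here. The intensities were taken to log2 with no further normalization. Of 45101 probe sets, 34958 are annotated to 1 gene, 932 to several and 9211 to none named here. The methods used SAM on probe sets with a present call in 3 or more samples. Present calls were not used and SAM was not run here. Instead, the 25617 probe sets highest by their third-highest intensity, as many as in the methods, were retained, and diets were compared with limma 3.58.1 in R 4.3.3 with lmFit and eBayes, over all of them. Gene counts take the p adjusted over probe sets.

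The members and lists (E proteins and Id proteins, other EMT regulators, other stromal transcription factors, epithelial genes, mesenchymal products and 12 cell marker lists) were chosen with earlier results of these data known. Every member probe set is named. Of other lists up to 3 genes are named, by smallest p among those that passed or else by highest mean, and for the 2 genes called by their brightest probe set the 3 genes of highest Pearson correlation. Foxf1, Pdgfrb, Rgs5, Des, Kdr, Lyz2, Tcf3, Tcf4, Tcf12 and Id1 were named after their values were seen. Exact two-sided permutation tests used the 70 arrangements of 4 and 4 samples. The fit was tested on simulated data. Alternatives were no filter, a stricter filter (third-highest intensity at least 32), quantile normalization, scaling on beta cell markers, an intensity trend with a robust prior, array weights, the methods' t-test, no fold limit, raised low values, linear means for the fold, any or the median probe set of a gene, and omission of each sample in turn. The methods' t-test is the unpaired Student's t-test named in their general statistics, while the authors tested the arrays with SAM. The number of arrays limits the precision. Python 3.11.15 with pandas 2.3.3 and numpy 2.4.6 was used for counts and tests over samples.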

Additional observations from a re-analysis of the deposited data

Results flagged for a closer look

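A single sample stood apart from the other 3 of its diet in 4 of the 50 groups of 4 values examined, 1 group per probe set and diet. Chance gives such a sample in about 1 in 20 groups. The ratio given is the gap to the nearest sample over the range of the group, both on the log2 scale, while the values printed are linear intensities. HF replicate 22 was the highest of its diet in Snai2 1418673_at, with 41.8 against 32.4 to 33.3 in the other HF samples, a ratio of 0.895. NC replicate 4 was the lowest of its diet in Prrx1 1425528_at, with an intensity of 31.7 against 51.7 to 56.9 in the other NC samples, a ratio of 0.837. NC replicate 1 was the highest in Meox2 1424234_s_at, with 19.6 against 8.06 to 8.10 in the other NC samples, a ratio of 0.994. NC replicate 5 was the highest in Zeb1 1446127_at, with 23 against 10.7 to 11.8 in the other NC samples, a ratio of 0.874. Each of the 4 falls on another sample.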

How the results depend on the processing

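Both called probe sets of Zeb2 passed under every alternative run. Over the alternatives, the 10 retained member probe sets gave 174 values on the same side of the threshold and in the same direction, 12 that no longer passed, all of Prrx1 or Tcf21, and 1 that newly passed, Meox1 without HF replicate 21. The 174 do not measure how stable the calls are. Of the 10 probe sets 6 did not pass to begin with. The settings with no fold limit and with linear means for the fold kept the adjusted p of the main fit. The count of member probe sets that fell was 4. It was 3 with no filter and with the stricter filter, 2 with the methods' t-test after adjustment and 2 to 4 without 1 sample. Over all retained probe sets 783 fell, against 450 with the methods' t-test after adjustment and 543 to 759 without 1 sample. With no filter 573 of 45101 fell, and with the stricter filter 766 of 19879. The count of member genes that fell by the brightest probe set was 2, and 1 with no filter, 1 with the stricter filter, 0 with the methods' t-test after adjustment and 0 to 2 without 1 sample. The stricter filter tests fewer probe sets and leaves Tcf21 out. Prrx1 1425528_at and Zeb2 1456389_at met its level of 32 through their NC values, with 20.2 to 32.1 and 19.8 to 33.6 in HF. That they passed under the stricter filter is therefore no added support. For the other settings the cause was not tested. With the methods' t-test, which was not the authors' test of the arrays, the adjusted p was 0.0993 for Prrx1 and 0.0640 for Tcf21. The difference of Twist1 minus Twist2, -0.0058, had values of -0.014 to 0.0038 without 1 sample, above 0 without NC replicate 5 and without HF replicate 24. Signs near 0 also turned for Ctbp1 (-0.045), Msln (-0.031) and Gcg (-0.070) with scaling on beta cell markers, for Gcg (-0.016) with quantile normalization, and without 1 sample for Msln (-0.030 to 0.10), Gcg (-0.016 to 0.018), Cela2a (-0.086 to 0.017), Cpb1 (-0.071 to 0.028) and Krt7 (-0.070 to 0.019). No paired analysis was possible because the diets share no replicate numbers. Among other genes named, Sox10, Ms4a1 and Sparc lost their calls without some samples (adjusted p of up to 0.06998, 0.0603 and 0.0674), and so did Itga5 (0.0960), Id2 (0.0625), Foxf1 (0.0683) and Pdgfrb (0.0919). The 15 member probe sets that were not retained are limited by their low signal.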
